A study of Rattus norvegicus with 6 samples.

Results

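The genes described here are 34 genes of the amino acid response in rat renal cortex: the transcription factor gene Atf4 with 16 genes that act with it or answer to it, and 17 genes of cytosolic aminoacyl-tRNA synthetases. They were chosen by name, as genes known for this response, but with earlier results of these data known. Of the 34, 33 could be tested, among 27506 genes tested in all. Renal cortex RNA was compared between 3 male Sprague-Dawley (Crl:CD(SD)) rats given potassium bromate at 100 mg/kg/day for 4 weeks and 3 male Sprague-Dawley rats given water for 4 weeks. All were bought at 5 weeks of age and kept on a basal diet. The labels call the 3 animals of each group biological replicates, with 1 single-colour Agilent array per animal. Potassium bromate is an oxidising compound that damages the kidney, and the comparison asked which genes differed under it.

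ATF4 is a transcription factor whose protein is made when the initiation factor eIF2 is phosphorylated, which happens when amino acids run short, when proteins misfold in the endoplasmic reticulum or when the cell is otherwise stressed. It then switches on genes that make, import and recycle amino acids and that charge tRNAs with them. Its protein level is set largely by translation, so its mRNA need not change when the pathway is active. In the kidney cortex the proximal tubule also makes serine, so several genes that are ATF4 targets elsewhere are active there at rest.

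Levels are given as log2 processed signal minus the log2 of that array's 75th percentile, in the order of replicates 1, 2 and 3, and set no probe against another. Differences are bromate minus water on the log2 scale ± standard error from limma, with n = 3 per group, and a gene rose or fell where its p, adjusted by Benjamini-Hochberg over all genes tested, was under 0.05. On the 6 arrays 57.9% to 63.1% of probes were well above background and none was saturated, and arrays correlated across genes at 0.988 to 0.991 within bromate, 0.983 to 0.992 within water and 0.966 to 0.978 between the groups. Water replicate 1 was hybridised on a slide of its own, and 1 slide carried the 5 remaining arrays. Markers placed the tissue in renal cortex, with the proximal tubule list well above background on every array, but several marker lists differed between the groups. Of 9 proximal tubule markers 6 fell and 0 rose, and their summed signal was 960 to 1118 times the 75th percentile on the bromate arrays, against 1641 to 1874 on the water arrays. All 5 measured thick limb and distal tubule markers fell, as did 3 of 6 collecting duct, 1 of 5 glomerulus and 1 of 5 endothelium markers, and of 8 tubule injury markers 4 rose. In the collecting duct list the 3 were Slc26a4 (-5.47 ± 0.31), Atp6v1g3 (-1.65 ± 0.17) and Slc4a1 (-1.59 ± 0.21). The other 3 did not pass: Scnn1b (-0.76 ± 0.19), Aqp2 (0.40 ± 0.30) and Aqp3 (0.03 ± 0.17), so the list did not fall as a whole. Apart from a fit with the straight proximal tubule markers as a covariate, the part of these shifts in the results was not tested. In tissue of many cell types, fewer cells of a type and less RNA per cell cannot be told apart.

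Under bromate 11 of the 33 measured genes rose and 0 fell by limma (18 higher and 0 lower at an unadjusted p under 0.05). Of all genes tested, which include probes without a gene symbol, 6.87% rose and 7.59% fell. Among the 11572 named genes tested 995 rose and 964 fell. Of the 16 measured genes around ATF4, 5 rose: Asns, Mthfd2, Trib3, Ppp1r15a and Atf5. Of the 17 synthetase genes 6 rose: Cars1, Nars1, Yars1, Iars1, Tars1 and Vars1. The rises around ATF4 reached 5.32-fold, and 3 of them were at least 2-fold, which 2.22% of all genes tested were. Those of the synthetases ran from 1.42-fold to 1.85-fold. The median difference was 0.45 for the genes around ATF4 and 0.33 for the synthetases, against -0.02 for all genes tested. The bromate values lay above every water value in 8 of the 16 and 12 of the 17 genes, which was the case in 19.6% of all genes tested. In 0 of the 33 did they lie below every water value (21.5% of all genes), and the groups were apart in either direction in 41.0% of all genes. With the mean of 9 straight proximal tubule markers as a covariate, an alternative added after the data were seen, Asns and Mthfd2 were the 2 genes of the 33 that rose, and Psph fell by 0.92 (adjusted p = 0.044).

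**Figure D1:**
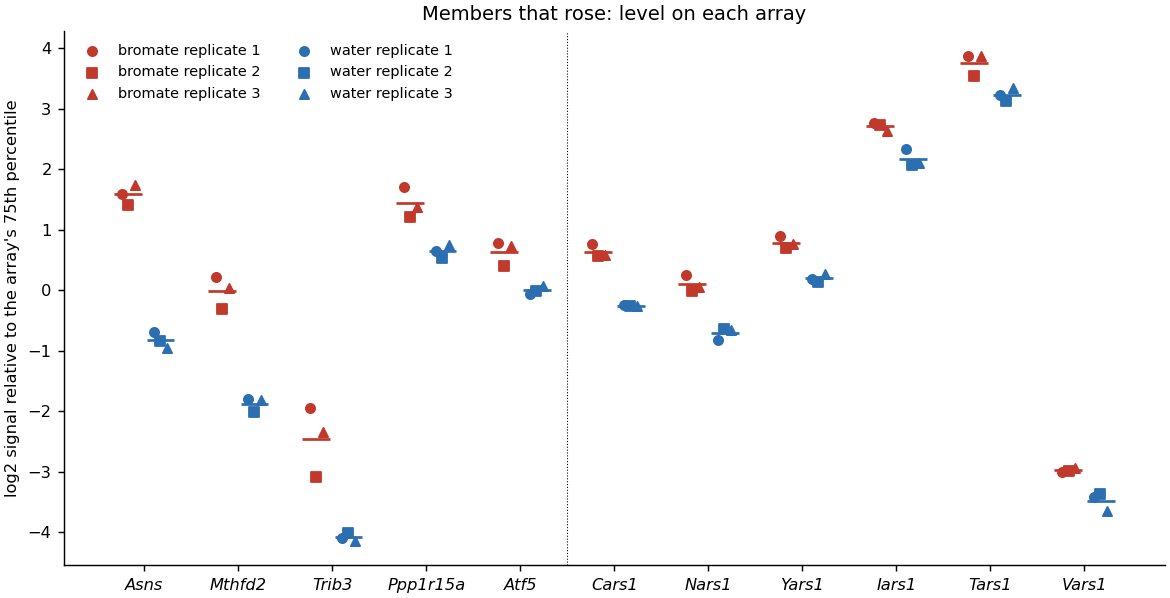
Level of each gene that rose, as log2 signal relative to the array's 75th percentile (vertical axis), with bromate arrays in red left of water arrays in blue, a symbol per replicate and a line at the group mean. In all 11 genes the 3 bromate values lie above the 3 water values, with the widest gap in Asns.

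Asns, which encodes asparagine synthetase and is a classical target of ATF4, had the largest difference among the probes of highest mean, although the second probe of Chac1, described below, differed by more. Its level was 1.60, 1.42 and 1.74 on the bromate arrays, against -0.69, -0.84 and -0.95 on the water arrays. The groups were far apart and tight within themselves. The difference was 2.41 ± 0.12 (5.32-fold, adjusted p = 0.000936), and the gene rose on leaving out any 1 of the 6 arrays (adjusted p = 0.00402 to 0.00964).

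Mthfd2, which encodes a mitochondrial folate enzyme that is low in most adult tissues, stood at 0.22, -0.31 and 0.04 on the bromate arrays, against -1.80, -2.004 and -1.81 on the water arrays. It rose 3.62-fold (1.86 ± 0.15, adjusted p = 0.00292), also with each array omitted in turn (adjusted p at most 0.0194). Its 5 probes all rose, by 1.66 to 2.42, although 3 of them met the flag for signal well above background on just 1 of the 3 water arrays.

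Trib3 and Ppp1r15a, genes of feedback on the response, were higher on every bromate array than on any water array. Trib3 encodes a pseudokinase that binds ATF4 and dampens it. Its level was -1.94, -3.08 and -2.35 on the bromate arrays, against -4.10, -4.00 and -4.14 on the water arrays, so bromate replicate 2 lay nearest to water. The difference was 1.62 ± 0.29 (3.08-fold, adjusted p = 0.0211), and the call did not hold without bromate replicate 3 (adjusted p = 0.0661), water replicate 2 (0.0704) or water replicate 3 (0.0677). With normexp the rise was smaller (0.98, adjusted p = 0.0256). Ppp1r15a, which encodes GADD34, the phosphatase subunit that restores eIF2, had 1.71, 1.22 and 1.38 on the bromate arrays, against 0.65, 0.53 and 0.76 on the water arrays. It rose 1.73-fold (0.79 ± 0.15, adjusted p = 0.0242), and was no longer called without bromate replicate 3 or without any 1 of the water arrays (adjusted p 0.053 to 0.0855), nor with slide as a block (0.053).

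Among the transcription factor genes, Atf5, a relative of ATF4 that is itself translated under stress, was called. It stood at 0.78, 0.39 and 0.74 on the bromate arrays, against -0.07, -0.01 and 0.07 on the water arrays, and rose 1.56-fold (0.64 ± 0.13, adjusted p = 0.0279). The call was lost when any of the arrays except bromate replicate 2 was omitted (adjusted p at most 0.0913), and with slide as a block (0.0611).

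Atf4 itself had 5.26, 4.90 and 4.79 on the bromate arrays, against 4.59, 4.47 and 4.23 on the water arrays. The groups did not overlap, but the difference of 0.56 ± 0.16 did not pass (adjusted p = 0.0706, 95% interval 0.16 to 0.95). The call depended on the processing: Atf4 passed with quantile normalization (0.58, adjusted p = 0.0469), normexp background correction (0.61, 0.0206) and an intensity trend in the variance (0.56, 0.0443). Cebpb, which encodes a bZIP factor that pairs with ATF4, had 4.44, 3.44 and 2.78 on the bromate arrays, against 2.09, 2.33 and 2.25 on the water arrays. Here the bromate arrays were spread over more than the gap between the groups. Its difference of 1.33 ± 0.41 did not pass (adjusted p = 0.0802), and it passed without bromate replicate 3 (1.71, adjusted p = 0.0466) and with normexp (1.34, 0.0479).

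Ddit3, which encodes CHOP, the factor of endoplasmic reticulum stress and cell death downstream of ATF4, had 2.72, 2.70 and 2.75 on the bromate arrays, against 3.03, 2.70 and 2.74 on the water arrays. The groups overlapped, and the 95% interval of the difference ran from -0.37 to 0.17, which leaves out a rise as large as that of any of the 5 called genes (lowest 0.64). Its second probe gave 0.01. Ddit4, which encodes the mTORC1 inhibitor REDD1, overlapped between groups, with 3.29, 2.37 and 1.89 on the bromate arrays, against 1.66, 2.26 and 1.00 on the water arrays (0.88 ± 0.46, adjusted p = 0.24).

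Chac1, which encodes an enzyme that breaks down glutathione and is an ATF4 target, could not be read from its probe of highest mean alone. That probe had -1.10, -1.12 and -0.90 on the bromate arrays, against -1.34, -1.18 and -1.21 on the water arrays (0.20 ± 0.10, adjusted p = 0.221). A second probe of the same transcript record had -1.62, -2.69 and -1.84 on the bromate arrays, against -5.21, -5.32 and -5.26 on the water arrays. It met the flag on all 3 bromate arrays and on 0 of the 3 water arrays, so it passed the filter through the bromate arrays alone. For that reason no p is given for it. On this probe the rise is bounded at at least 7.74-fold (fitted difference 3.21 ± 0.28). A bound of this kind sets the bromate mean against, per water array, the higher of the probe's own signal and the lowest signal well above background. The third probe stayed below that flag on all 6 arrays, with -5.60, -6.67 and -5.74 on the bromate arrays and -6.84, -7.33 and -7.26 on the water arrays. The mean of the first and second probe differed by 1.71, which rests on the second probe and its passage through the filter.

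The genes of serine synthesis and use did not pass. Phgdh, Psat1 and Psph encode the 3 enzymes that make serine from a glycolytic intermediate, in that order, and Shmt2 the mitochondrial enzyme that passes serine's carbon to folate. Phgdh had 6.80, 6.64 and 6.73 on the bromate arrays, against 6.79, 7.07 and 7.11 on the water arrays (-0.27 ± 0.11, adjusted p = 0.171). Psat1 had 5.61, 5.30 and 5.21 on the bromate arrays, against 5.15, 5.64 and 5.64 on the water arrays (-0.11 ± 0.18). Psph had 2.23, 2.35 and 2.16 on the bromate arrays, against 2.22, 2.76 and 2.98 on the water arrays (-0.41 ± 0.20, adjusted p = 0.219). In all 3 genes water replicate 1 was the lowest water array. It lay within the range of the bromate values in Phgdh and Psph and below all of them in Psat1. The same array had the highest mean of the straight proximal tubule markers, whose log2 means were 0.26, -0.18 and 0.56 on the bromate arrays, against 2.73, 1.54 and 0.67 on the water arrays. With that mean as a covariate the difference was -0.45 ± 0.15 for Phgdh (adjusted p = 0.189), -0.43 ± 0.22 for Psat1 (0.328) and -0.92 ± 0.12 for Psph (0.044). Without water replicate 1, or with slide as a block, which leaves that array out of the comparison, Psph fell by 0.63 (adjusted p = 0.0355). Phgdh and Psat1 did not pass whichever array was omitted (lowest adjusted p 0.0622 and 0.254). Shmt2 was at 3.42, 3.40 and 3.42 on the bromate arrays, against 3.59, 3.05 and 3.55 on the water arrays, and its 95% interval ran from -0.38 to 0.40.

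Of the carriers, Slc3a2, which encodes the heavy chain shared by several amino acid exchangers, had 4.48, 4.40 and 4.35 on the bromate arrays, against 4.32, 4.53 and 4.69 on the water arrays (-0.10 ± 0.12, adjusted p = 0.578). Slc7a5, which encodes the large neutral amino acid carrier LAT1, was not tested: its single probe was well above background on 0 of the 6 arrays. Vldlr, which encodes a lipoprotein receptor, had -2.24, -2.07 and -2.11 on the bromate arrays, against -2.64, -2.62 and -2.20 on the water arrays (0.35 ± 0.14, adjusted p = 0.153). Bromate replicate 1 overlapped with water replicate 3 there.

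**Figure D2:**
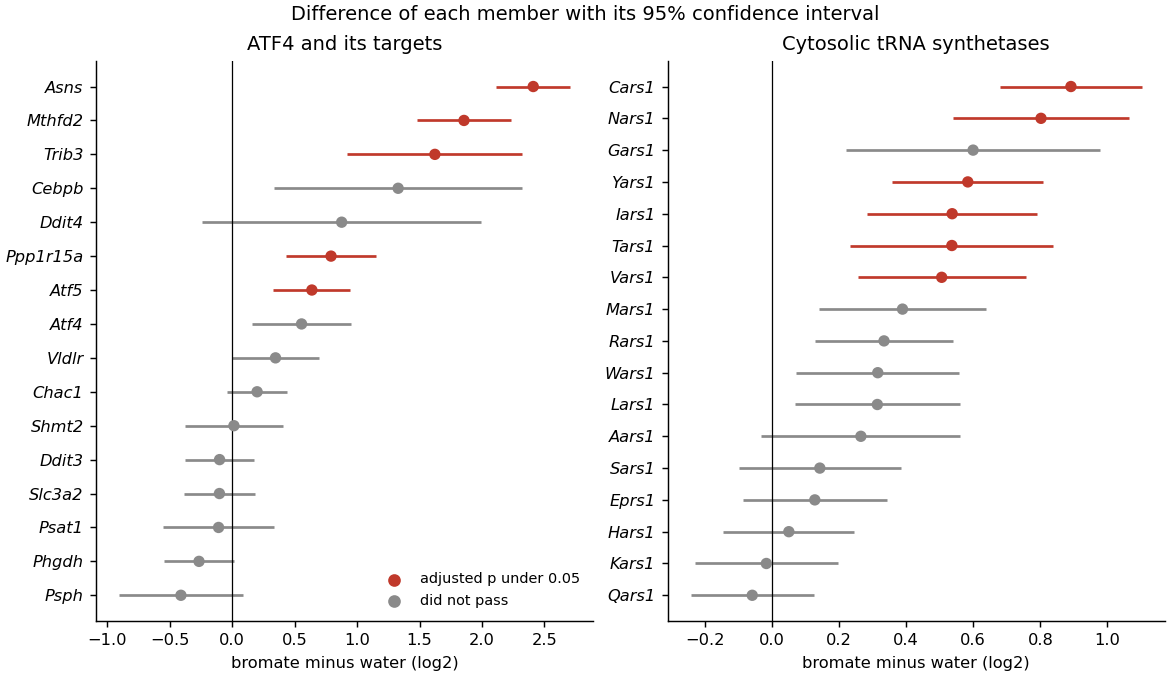
Difference of each tested gene, bromate minus water on the log2 scale (horizontal axes, which differ in range), with its 95% interval, for the genes around ATF4 and the cytosolic synthetases. Red marks the 5 and 6 genes with an adjusted p under 0.05, and Asns stands at 2.41 while the synthetases end at 0.89.

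Aminoacyl-tRNA synthetases join each amino acid to its tRNA. The synthetase differences were smaller than those of Asns and Mthfd2 and graded, from -0.06 to 0.89. Cars1, for cysteine, had the largest, with 0.76, 0.56 and 0.58 on the bromate arrays, against -0.24, -0.26 and -0.26 on the water arrays. It rose 1.85-fold (0.89 ± 0.09, adjusted p = 0.00446). Nars1, for asparagine, the product of Asns, stood at 0.26, -0.01 and 0.05 on the bromate arrays, against -0.82, -0.63 and -0.66 on the water arrays. It rose 1.74-fold (0.80 ± 0.11, adjusted p = 0.0109). Both rose with each array omitted in turn (adjusted p at most 0.0284 for Cars1 and 0.0427 for Nars1).

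Yars1, for tyrosine, had 0.90, 0.69 and 0.76 on the bromate arrays, against 0.18, 0.14 and 0.28 on the water arrays (0.58 ± 0.09, 1.5-fold, adjusted p = 0.0159). Iars1, for isoleucine, had 2.77, 2.72 and 2.63 on the bromate arrays, against 2.34, 2.07 and 2.10 on the water arrays (0.54 ± 0.10, 1.45-fold, adjusted p = 0.0261). For threonine, Tars1 had 3.88, 3.54 and 3.86 on the bromate arrays, against 3.22, 3.12 and 3.33 on the water arrays (0.54 ± 0.12, 1.45-fold, adjusted p = 0.0404). Vars1, for valine, had -3.003, -2.99 and -2.93 on the bromate arrays, against -3.41, -3.37 and -3.65 on the water arrays (0.51 ± 0.10, 1.42-fold, adjusted p = 0.0293). These 4 calls depended on single arrays. That of Yars1 did not hold without bromate replicate 3 or water replicate 2 (adjusted p up to 0.0657). That of Iars1 held with water replicate 1 omitted but with none of the other 5 (0.0629 to 0.0899). That of Tars1 held with bromate replicate 2 omitted but with none of the other 5 (0.0786 to 0.124), nor with slide as a block (0.0786). That of Vars1, like that of Iars1, held with water replicate 1 omitted but with none of the other 5 (0.0654 to 0.0902), and it was lost with normexp (0.27, adjusted p = 0.0514) and with an intensity trend (0.0541).

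A further 6 synthetase genes had bromate values above every water value without passing. Gars1, for glycine, had 5.44, 4.96 and 5.37 on the bromate arrays, against 4.77, 4.50 and 4.70 on the water arrays (0.60 ± 0.15, adjusted p = 0.0535), and it passed without bromate replicate 2 (0.75, adjusted p = 0.0435). Rars1, for arginine (0.33 ± 0.08, adjusted p = 0.0506), and Mars1, for methionine (0.39 ± 0.10, adjusted p = 0.0549), lay as close to the threshold. All 3 genes passed with quantile normalization, the percentile over detected probes, normexp, the filter on all 6 arrays and the intensity trend (adjusted p 0.0185 to 0.0456), and Rars1 and Mars1 also with the mean of a gene's probes (0.0472 and 0.0293). Wars1, for tryptophan (0.32 ± 0.10), Lars1, for leucine (0.31 ± 0.10), and Aars1, for alanine (0.26 ± 0.12), had adjusted p of 0.0866, 0.0892 and 0.19. Wars1 passed without water replicate 1 or with slide as a block (0.39, adjusted p = 0.0467). It also passed with quantile normalization, normexp, the mean of its probes and the intensity trend (adjusted p 0.0151 to 0.04996).

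The last 5 overlapped between the groups. Sars1, for serine, differed by 0.14 ± 0.10, Eprs1, for glutamate and proline, by 0.13 ± 0.09, Hars1, for histidine, by 0.05 ± 0.08, Kars1, for lysine, by -0.02 ± 0.09 and Qars1, for glutamine, by -0.06 ± 0.07. The 95% intervals of Hars1 (-0.14 to 0.25), Kars1 (-0.23 to 0.20) and Qars1 (-0.24 to 0.12) all end below the smallest difference among the synthetases that rose (0.51). The cytosolic synthetase genes thus differed among themselves in size. Qars1, as an example, had 4.52, 4.45 and 4.49 on the bromate arrays, against 4.59, 4.49 and 4.56 on the water arrays.

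Some of these enzymes sit in the multi-synthetase complex and others do not. Split in this way after the values were known, 1 of the 7 complex members rose (Iars1) and 5 of the 10 others, where 6.87% of all genes tested rose. The median differences were 0.31 and 0.52. The counts turn on the threshold, as Rars1 and Mars1 of the complex and Gars1 outside it lay just above it (adjusted p 0.0506 to 0.0549). The differences of the complex members ran from -0.06 to 0.54 and those of the free ones from 0.05 to 0.89, so the ranges overlap, and the difference between them was not tested.

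Most mitochondrial synthetases are made by separate genes, which are not typical ATF4 targets. Of 14 measured 1 rose, where 6.87% of all genes tested did. It was Ears2, for glutamate (0.56 ± 0.08, 1.48-fold, adjusted p = 0.0122). Its values were 0.57, 0.55 and 0.50 on the bromate arrays, against -0.01, -0.10 and 0.04 on the water arrays, and it was no longer called without bromate replicate 2 (adjusted p = 0.0513) or water replicate 2 (0.0529). The median of the list was 0.03. Set side by side, the cytosolic difference was the larger in 10 of 11 pairs, with Eprs1 and Ears2 the exception. Cars2 differed by -0.04 ± 0.09 beside 0.89 for Cars1, and Nars2 by -0.06 ± 0.13 beside 0.80 for Nars1. These gaps between partners were not tested. Of the 3 cytosolic synthetase genes and 3 scaffold genes outside the chosen 34, 0 rose and 0 fell by limma, and 2 were higher and 0 lower at an unadjusted p under 0.05. They include Farsa, a phenylalanine subunit (0.34 ± 0.10, adjusted p = 0.0647), picked for mention after its value was seen, and the scaffold gene Aimp1 (0.10 ± 0.08).

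ATF4 is known to bind DNA as a dimer with C/EBP factors at an element with the core TGATGCAA. The windows from 250 bases before to 50 bases after each gene's start were searched for these letters on both strands, in RefSeq sequence of the rat build GRCr8, and 32 of the 34 genes had a window. Gars1 and Rars1 had none. The core stood in 266 of all 33469 windows (0.795%). It stood in the windows of 7 of the 15 synthetase genes and of 1 of the 17 genes around ATF4, Chac1. Of the 6 synthetase genes that rose 5 held it, all but Vars1, and of the 9 that did not pass and had a window 2 held it, Mars1 and Aars1. A match is a run of letters and does not show binding. The matches of 7 genes are shown here, to compare the letters around the core, as 30-base stretches on the strand of the gene, with the core in capitals, read as TTGCATCA where it lies on the other strand.
Cars1: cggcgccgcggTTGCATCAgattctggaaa
Nars1: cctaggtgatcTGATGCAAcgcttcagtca
Yars1: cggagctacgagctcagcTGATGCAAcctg
Iars1: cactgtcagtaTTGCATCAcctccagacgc
Tars1: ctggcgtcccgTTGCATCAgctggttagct
Mars1: gcccgttccggTTGCATCAgcgtgggctcc
Chac1: cttctccgccgTTGCATCActcctgctagg

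In GRCr8 these stretches lie at chr1:208225334-208225363 (minus strand) for Cars1, chr18:60275778-60275807 (minus) for Nars1, chr5:146820183-146820212 (plus) for Yars1, chr17:15193658-15193687 (minus) for Iars1, chr2:62114811-62114840 (minus) for Tars1, chr7:65023752-65023781 (minus) for Mars1 and chr3:126795953-126795982 (plus) for Chac1. Counted from the gene's start, the first base of the core was at -27 in Tars1, -24 in Iars1, -17 in Mars1 and -14 in Nars1. It was at 18 in Cars1 and 39 in Yars1, past the start, and at -167 in Chac1.

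The upstream stretches of Iars1, which rose and holds the core near its start, and of Kars1, which did not pass and holds none, are shown for comparison, each from base -250 to base -1, with the core in capitals. Iars1 lies at chr17:15193653-15193902 and Kars1 at chr19:56886084-56886333, both on the minus strand of GRCr8.
Iars1: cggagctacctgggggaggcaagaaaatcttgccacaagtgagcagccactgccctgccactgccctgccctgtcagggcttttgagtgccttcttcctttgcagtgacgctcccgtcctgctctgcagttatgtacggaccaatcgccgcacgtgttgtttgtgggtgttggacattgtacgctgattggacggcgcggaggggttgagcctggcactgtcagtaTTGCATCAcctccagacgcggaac
Kars1: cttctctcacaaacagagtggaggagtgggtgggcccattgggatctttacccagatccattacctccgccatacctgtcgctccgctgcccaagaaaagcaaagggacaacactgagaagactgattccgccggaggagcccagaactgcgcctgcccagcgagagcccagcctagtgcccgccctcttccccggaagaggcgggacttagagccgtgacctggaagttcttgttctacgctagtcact

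Asns, Mthfd2, Ppp1r15a and Atf5 rose without these letters in their windows. With the sixth base left free (TGATGNAA, of which TGATGCAA is 1 case), Trib3 also matched, at -21, and 3.98% of all windows did. Over the named genes tested, the core stood in the windows of 11 of 818 genes that rose (1.34%), 6 of 770 that fell (0.779%) and 43 of 7871 that did not pass (0.546%), and 5 of those 11 are the synthetase genes above. The looser TGATGNAA had another order, with 17 of 818 genes that rose (2.08%), 25 of 770 that fell (3.25%) and 184 of 7871 that did not pass (2.34%).

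Probe by probe, 64 probes of the 33 genes were tested, and 23 genes had several. The other probes went in the direction of the probe that stands for the gene in 30 of 31 cases, with Ddit3 the exception. The largest and smallest difference of a gene's probes were a median of 0.08 apart, 3.01 apart in Chac1 and at most 0.76 apart in the rest. Tested over all probes, of which 7.19% rose, the calls of a gene's probes differed in 7 genes: Chac1, Gars1, Iars1, Mars1, Rars1, Tars1 and Wars1. In Chac1 the called probe had passed the filter through the bromate arrays alone. The other probes of Wars1 rose by 0.68 ± 0.09 and 0.47 ± 0.09 (adjusted p = 0.01 and 0.0233), beside 0.32 for its probe of highest mean. The second probe of Mars1 rose by 0.51 ± 0.10 (adjusted p = 0.0255).

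**Figure D3:**
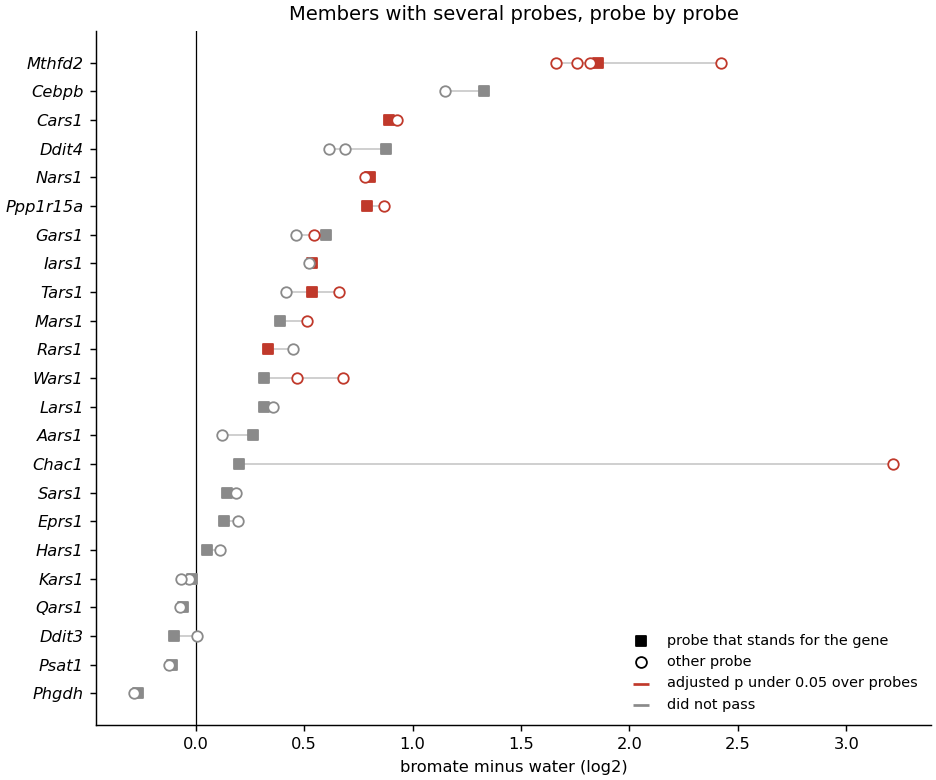
Difference of each tested probe, bromate minus water on the log2 scale (horizontal axis), for the 23 genes with several probes, with squares for the probe that stands for the gene and circles for the others. Most probes of a gene lie together, and Chac1 stands out with probes at 0.20 and 3.21.

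The arrays of the bromate group were not alike in these genes. Bromate replicate 1 was the highest bromate array in 25 of the 33 genes (75.8%), against 42% of all genes tested, and bromate replicate 2 was the lowest in 19 (57.6%, against 34.8%). Within water, replicate 2 was the lowest in 14 of the 17 synthetase genes (82.4%, against 31.9% of all genes). Bromate replicate 1 had the lowest mean of the 5 measured cell division markers in its group, at -1.01, against 0.65 and 0.47 on bromate replicates 2 and 3. It was also lowest in its group for the tubule injury (3.31, against 3.95 and 4.14), fibroblast, macrophage and lymphocyte markers. For the collecting duct, glomerulus and endothelium markers it was the highest. A link between these differences and the 33 genes was not tested.

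Other genes of the pathway were listed with earlier results of these data known. Of 22 measured targets of ATF4 outside the 34 genes 8 rose, 1 fell and 13 did not pass. Over all genes tested 6.87% rose and 7.59% fell. The largest rises were in Atf3, a stress factor that also answers to other pathways (3.44 ± 0.39, adjusted p = 0.00679), Bcat1, a branched-chain aminotransferase (3.41 ± 0.18, adjusted p = 0.00105), Mthfd1l, the mitochondrial folate enzyme that acts after Mthfd2 (2.63 ± 0.40, adjusted p = 0.0144), and the stress protein gene Nupr1 (2.24 ± 0.39, adjusted p = 0.0211). On the water arrays the flag was met by Bcat1 on 2 and by Mthfd1l on 1 of the 3. With normexp the differences of Bcat1 (1.70) and Mthfd1l (1.41) were smaller than that of Nupr1 (2.10), so their place among the largest rises depends on the background correction. The call of Mthfd1l was lost without bromate replicate 2 (adjusted p = 0.0563) or water replicate 2 (0.0552), and that of Nupr1 without bromate replicate 1, bromate replicate 3 or water replicate 3 (0.0542 to 0.0679). The fall was in Adm2, chosen for mention once its value was known, which encodes a peptide hormone (-1.03 ± 0.19, adjusted p = 0.0231). Its call was lost without bromate replicate 1 or 2 or water replicate 1 or 2 (adjusted p 0.0531 to 0.0828).

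Bcat1 had -1.68, -1.61 and -1.04 on the bromate arrays, against -4.79, -4.83 and -4.93 on the water arrays. Mthfd1l had -1.99, -1.87 and -2.09 on the bromate arrays, against -3.67, -5.07 and -5.10 on the water arrays. In both the groups were apart, and in Mthfd1l water replicate 1 lay nearest to bromate.

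Upstream, the 4 eIF2 kinase genes did not pass, among them Eif2ak3, for the kinase PERK of the endoplasmic reticulum (0.12 ± 0.08), and Eif2ak4, for the amino acid sensor GCN2 (0.10 ± 0.18), named after their values were seen. Of the 16 measured genes of eIF2 and its control 1 rose and 0 fell, where 6.87% of all genes tested rose and 7.59% fell. The gene that rose was Eif2b3, for a subunit of the factor that recharges eIF2 (0.94 ± 0.11, adjusted p = 0.00717). Of 14 other genes of the unfolded response of the endoplasmic reticulum 1 rose and 0 fell, beside the same shares. It was Dnajb9, for a chaperone of the reticulum (0.53 ± 0.12, adjusted p = 0.0422). Its call was lost whichever array was omitted (adjusted p 0.0648 to 0.124). Hspa5, the leading chaperone gene of that response, named after its value was seen, had 5.12, 5.15 and 4.87 on the bromate arrays, against 5.22, 4.79 and 5.07 on the water arrays (0.02 ± 0.14).

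Of 13 other measured serine, glycine and folate genes 0 rose and 3 fell, where 6.87% of all genes tested rose and 7.59% fell. Cbs, for the enzyme that joins serine to homocysteine, fell by 0.71 ± 0.13 (adjusted p = 0.0227), Mthfd1, for the cytosolic folate enzyme, by 0.58 ± 0.13 (adjusted p = 0.0403) and Gcsh, for a protein of glycine cleavage, by 0.31 ± 0.08 (adjusted p = 0.0493). With 1 array omitted their adjusted p reached 0.0791, 0.119 and 0.144, and Gcsh passed with all 6 arrays only.

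**Figure D4:**
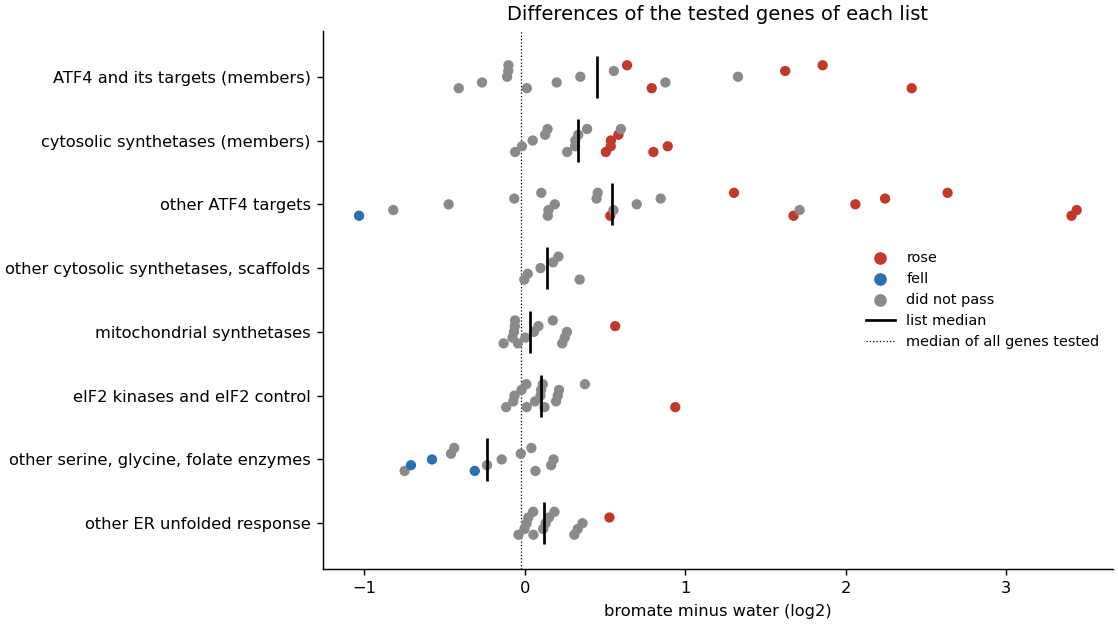
Difference of every tested gene, bromate minus water on the log2 scale (horizontal axis), by list, with a bar at the list's median and a dotted line at the median of all genes tested (-0.02). The lists of ATF4 and its targets, the cytosolic synthetases and the other ATF4 targets have medians of 0.45, 0.33 and 0.54, and the other lists lie between -0.23 and 0.14.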

How the data were processed

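Cy3-labelled RNA of 1 rat was hybridised per array. Feature Extraction 10.7 was used by the submitters, per the submitters' processing notes. Per the file headers, the deposited processed intensity of 61537 probes had its background removed and its spatial trend corrected, with no scaling across arrays, on a design annotated on rn4. The flags in those files are the scanner software's. The deposited table of values is a ratio: it matched signal over the array's 75th percentile to within 0.323% for values above 1, although no label states this. Its bromate columns had medians of 0.103, 0.105 and 0.103, its water columns 0.104, 0.105 and 0.103.

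From the deposited intensity, log2 values were computed and shifted so that the 75th percentile of every array was 0, without control and outlier spots. Transcript accessions gave 28206 probes 1 symbol and 33331 none. Probes well above background on 3 or more of the 6 arrays were kept, the brightest on average standing for its gene (27506 genes, 11572 named). limma 3.58.1 (R 4.3.3) fitted the 2 groups, and p-values were adjusted by Benjamini-Hochberg over every gene, with a threshold of 0.05. The fit was tested on simulated data with 200 changed genes, fewer than were called here. It called 56 of 100 genes changed by 1 on the log2 scale and 88 of 100 changed by 2, with 9 false calls. A gene that did not pass may thus still have changed. The number of arrays limits the precision.

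The genes and lists were chosen with earlier results of these data known. One promoter match and one gene of another list are not reported here. All 34 genes are named, and of each other list up to 4 called genes with the largest difference, or else the one of highest signal. Alternatives changed the scaling (quantile, a percentile over detected probes, normexp with offset 50 on median spot and background intensity, the deposited ratio), the filter, the choice of probe, the variance model, blocks for slide and for replicate number, and omitted each array. A covariate of straight-tubule markers was added after the data were seen.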

Additional observations from a re-analysis of the deposited data

How the results depend on the processing

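The genes around ATF4 that rose numbered 5, and 2 to 5 on leaving out 1 array, 2 with no filter on dim probes and 3 with slide as a block. The synthetase genes that rose numbered 6, and 2 to 6 on leaving out 1 array, 10 with quantile normalization and 2 with no filter. Around ATF4 0 fell (0 at an unadjusted p under 0.05 by limma), 1 (Psph) with slide as a block, and 0 to 1 on leaving out 1 array. Over all genes 1891 rose and 2088 fell, 594 to 1495 and 530 to 1835 on leaving out 1 array and 750 and 694 with no filter. With the replicate number as a replicate block 585 and 535 of all genes, 2 around ATF4 (Asns and Mthfd2) and 1 synthetase gene (Cars1) were called. The labels state no pairing of these numbers. Same-numbered arrays correlated in their deviations at 0.05, 0.07 and -0.10, which with 3 arrays per group cannot decide whether they are paired. With the mean of the straight-tubule markers added as a covariate, chosen after seeing the data and itself lower on all 3 bromate arrays than on any water array, 274 rose and 206 fell, among them 2 and 1 (Psph) around ATF4 and 0 synthetase genes (10 higher at an unadjusted p under 0.05 by limma). Fewer residual degrees of freedom enter these last fits, and the cause of the shifts was not tested. Signs turned only in genes that did not pass. Ddit3 was 0.0034 with slide as a block or without water replicate 1 and 0.10 with the covariate. Shmt2 ran from -0.16 to 0.11 on leaving out 1 array. Kars1 was 0.0030 with quantile normalization and 0.0391 with normexp, and ran from -0.0624 to 0.0233 on leaving out 1 array. Asns and Mthfd2 rose under all 17 alternatives fitted over genes.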

Other observations

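The core TGATGCAA also stood in the windows of 7 of the 22 other ATF4 targets that had a window, in 0 of 16 mitochondrial synthetase genes, 0 of 13 other genes of the unfolded response and 0 of 11 other serine, glycine and folate genes. Of those 7, Nupr1 rose, Slc38a1 (0.85 ± 0.34), Herpud1 (0.19 ± 0.30) and Jdp2 (-0.47 ± 0.33) did not pass, and Fgf21, Pycr1 and Slc1a4 were not tested. Among the genes of eIF2 control, the core stood in the windows of Eif2s2 (0.38 ± 0.11, adjusted p = 0.0707) and Ppp1r15b (-0.02 ± 0.16). Slc6a9, which encodes a glycine carrier and holds no match, rose 4.17-fold (2.06 ± 0.24, adjusted p = 0.00729), and Eif4ebp1, which encodes the translation repressor 4E-BP1, rose 2.47-fold (1.30 ± 0.16, adjusted p = 0.00883). All genes named in this paragraph were picked after their values were seen.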
